A study of Mus musculus with 187 samples.

Results

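Heart RNA was compared between the inbred mouse strains BALB/cJ and C57BL/6J and the 6 CXB strains CXB4/ByJ, CXB6/ByJ, CXB7/ByJ, CXB11/HiAJ, CXB12/HiAJ and CXB13/HiAJ. The libraries were taken by strain label alone, and 17 libraries of the series belong to these strains, the other 170 libraries belonging to 98 other strains. All animals carried only their strain's natural alleles, were kept on chow up to 8 weeks of age, then on a diet rich in fat and sucrose for 8 weeks, and were 16 weeks old when the hearts were collected. BALB/cJ was represented by 1 male and 1 female, C57BL/6J by 2 males and 1 female, CXB6/ByJ by 1 male and 2 females, CXB7/ByJ by 1 male, and each of the other CXB strains by 1 male and 1 female. The labels describe 1 mouse for each strain, which cannot hold for strains with libraries of both sexes. They do not say what the library numbers mark, so the errors and p-values given here measure the spread between libraries. There was no chow-only group, so the diet was shared by every library and its effect was not measured.

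The CXB strains are recombinant inbred lines. A cross between BALB/c and C57BL/6 was followed by brother-sister mating until each line was fixed, at almost every locus, for the allele of one parent or the other. Each chromosome of a line is therefore a mosaic of parental segments, and a gene whose level depends on its own locus is expected at one parental level in some lines and at the other level in the rest. The ByJ lines were bred from the By sublines of both parents, which separated from the sequenced J sublines, so a mutation private to BALB/cJ or to C57BL/6J need not be present in them. The sublines behind the HiAJ lines are not given in the sources used here.

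The libraries held 36754061 to 64224801 estimated counts, with a median of 45585329. Levels are given as CPM, counts scaled to a common library size that TMM normalization adjusted. Markers of cardiomyocytes (Myh6, Tnnt2, Tnni3, Actc1 and Ryr2) summed to 33477 to 54741 CPM in every library, and lung markers summed to at most 0.31 CPM. Globin and Alas2 transcripts, which mark blood, ranged from 1417 to 9905 CPM and atrial markers from 193 to 1844 CPM, in both cases within the CXB strains as widely as between the parents. A few libraries stood apart. Among well detected genes, the shift of each library relative to the others was compared between the longest 25% and the shortest 25%. The longest minus the shortest was -0.97 on the log2 scale in the CXB7/ByJ male, -0.59 in the CXB4/ByJ female and -0.51 in the CXB6/ByJ male. In the remaining 14 libraries it lay between -0.11 and 0.29. Mitochondrially encoded transcripts took 61.3% of counts in the CXB6/ByJ male, 55% in the CXB4/ByJ female and 33.7% in the CXB7/ByJ male, in a range of 33.3% to 61.3%. Adipose markers summed to 590, 508 and 877 CPM in these libraries, in the same order, and to 276 to 377 CPM in the others. Fabp4 alone made up 589, 506 and 874 CPM of those sums. The BALB/cJ female held reads of several genes that were nearly silent in the BALB/cJ male: of 62 genes at least 4-fold higher in C57BL/6J, it lay nearer to C57BL/6J than the male in 52, and by more than 0.25 of the parental distance in 40. No other pair of libraries from a single strain differed that way in more than 16. Values or tests without these libraries are given beside several of the results.

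The parents were compared first, to find the genes whose inheritance can be followed in the CXB strains. Of 15203 genes tested, 1051 differed between BALB/cJ and C57BL/6J (edgeR quasi-likelihood F test with Benjamini-Hochberg adjustment, threshold 0.05), which is 6.91% of all genes. They divided into 634 genes higher in BALB/cJ (4.17%) and 417 higher in C57BL/6J (2.74%). Without the BALB/cJ male 388 genes passed, and without the BALB/cJ female 685 passed. Without the 3 libraries with low levels of long genes the count was 1765. The share of these genes that was higher in BALB/cJ was 60.3% here and reached 81.7% under limma on the length-scaled log2(TPM + 1).

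A set of 535 of these genes (3.52% of all tested) differed at least 2-fold, did not overlap between the parental libraries and reached 1 CPM in the higher parent. For each of them every CXB library was placed on a scale of log2 CPM on which 0 is the C57BL/6J mean and 1 the BALB/cJ mean. A strain was called at the BALB/cJ level at 0.75 or more and at the C57BL/6J level at 0.25 or less, so that a strain beyond a parent counted with that parent. Of the 535 genes, 333 were higher in BALB/cJ and 202 higher in C57BL/6J, 403 were protein coding and 119 were pseudogenes. At the fold minimum, Dapp1 lay just inside with an absolute log2 fold change of 1.002 and Ttc39b just outside with 0.998.

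The CXB strains were a patchwork of the 2 parental levels. Among genes that could be assigned, 54.8% were at the BALB/cJ level in CXB12/HiAJ, 51.9% in CXB4/ByJ, 51.1% in CXB11/HiAJ, 45.5% in CXB13/HiAJ, 45.2% in CXB7/ByJ and 32.3% in CXB6/ByJ. The Wilson 95% interval was 27.9% to 37.1% in CXB6/ByJ, below the lowest bound of the other 5 strains (40.4%, in CXB7/ByJ). Genes on one chromosome are not independent, so these intervals cover counting error only. Between 23.6% and 26.5% of the genes lay between the parents in each strain and were not assigned. The mean over the strains was 46.8% ± 8.03 (SD, n = 6).

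**Figure D1:**
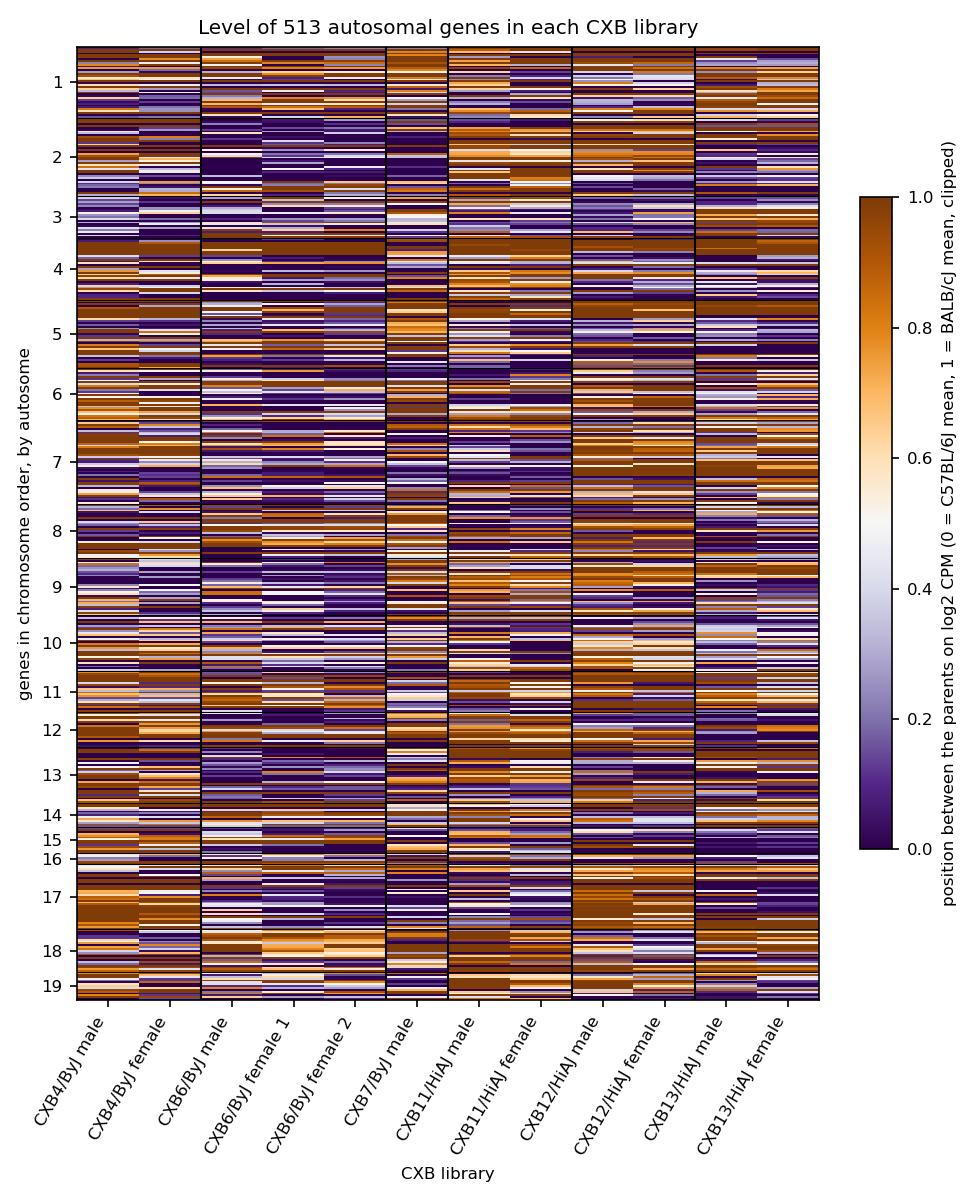
Position of each CXB library (columns) between the parents for each autosomal gene of the set (rows, in chromosome order), with the C57BL/6J mean at 0 and the BALB/cJ mean at 1 on log2 CPM and values beyond the parents drawn at the ends of the scale. Columns of one strain show the same bands, and the bands differ between strains.

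Libraries of one strain repeated each other. Of the genes assigned in both libraries, the 7 pairs from a single strain were at the same level for 95.6% to 99.7% (mean 97.6%), and the 59 pairs from different strains for 45.1% to 66.3% (mean 55.3%). The lowest pair of the first kind was the CXB4/ByJ male and female. When log2(TPM + 1) replaced log2 CPM the ranges overlapped, with 78.5% as the lowest value within a strain and 87.7% as the highest between strains.

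Genes close together on a chromosome were usually at the same parental level. Over the 190 genes assigned in every strain and placed on an autosome or the X chromosome, the 48 pairs less than 1 Mb apart matched in 84.7% of strain comparisons. The figure fell with distance, to 63.8% at 1 to 5 Mb, 61.4% at 5 to 20 Mb and 53.3% beyond 50 Mb, against 50.4% for pairs on different chromosomes. For protein-coding genes alone, 26 pairs less than 1 Mb apart matched in 95.5%. Pairs share genes and strains, so the percentages are descriptions with no test.

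**Figure D2:**
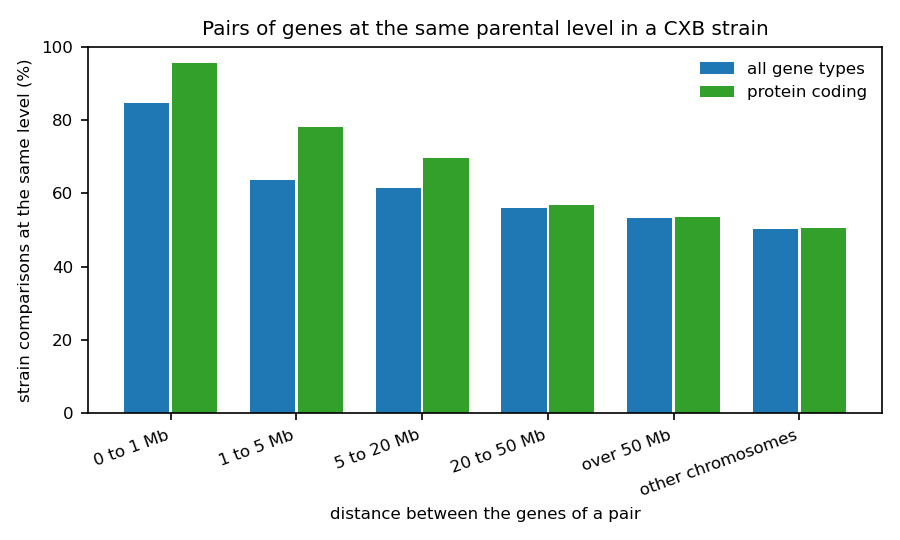
Share of strain comparisons in which a pair of genes was at the same parental level (y axis, percent), by the distance between the genes (x axis), for all gene types and for protein-coding genes. Bars start at 84.7% and 95.5% below 1 Mb and end at 50.4% and 50.6% for different chromosomes.

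The 12 CXB libraries were then fitted alone, to find the genes that differed between CXB strains. The same libraries had entered the fit of all 17 libraries that gave the parental genes, through its filter, normalization and estimate of spread. With the 5 parental libraries alone 1286 genes differed between the parents, 870 of them shared with the 1051. Here 1593 of 14895 genes passed (edgeR F test over the strain terms), or 10.7%. Of the genes that differed between the parents, 556 of 1008 (55.2%) varied among the CXB strains, against 7.47% of the genes that did not. The share was 39% for parental log2 differences under 1, 54.8% from 1 to 2, 61.7% from 2 to 4 and 89.7% at 4 or more. Without the CXB4/ByJ female, the CXB6/ByJ male and the CXB7/ByJ male, 804 genes passed (5.46%), with 45.1% of the parental genes and 87.5% of those at 4 or more among them. Leaving out 1 library moved the count between 526 (without the CXB12/HiAJ male) and 4485 (without the CXB4/ByJ male), without which 70% of the parental genes and 30.3% of all genes passed. Without the CXB12/HiAJ male the share of parental genes was 33.2%, against 3.54% of all genes. Over all alternatives it ranged from 23% to 73.9%, the share of all genes from 2.34% to 30.3%, and the share of parental genes at 4 or more from 77.4% to 96.5%.

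Several genes of the contractile apparatus divided the CXB strains. Cardiomyocytes of the adult mouse ventricle contain mainly the alpha heavy chain of myosin (Myh6) and cardiac actin (Actc1). The beta heavy chain (Myh7) and skeletal actin (Acta1) belong to the fetal heart and to slow or skeletal muscle, and are commonly read as signs of cardiac load. Of 36 contractile and sarcomere-associated genes tested, 4 were higher in BALB/cJ and 3 higher in C57BL/6J (4.17% and 2.74% of all genes), with a median log2 difference of 0.23 against 0.01 for all genes, and 11 varied among the CXB strains (10.7% of all genes). Without the 3 libraries with low levels of long genes, 7 of them varied (5.46% of all genes): Acta1, Actc1, Myh7, Myom2, Tcap, Tnni3k and Tpm3.

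Myh7 (chromosome 14) measured 2250 and 2806 CPM in BALB/cJ and 236, 237 and 197 CPM in C57BL/6J. It measured 269 and 218 CPM in CXB4/ByJ, 3491, 2034 and 2247 CPM in CXB6/ByJ, 4330 CPM in CXB7/ByJ, 2048 and 1690 CPM in CXB11/HiAJ, 143.8 and 187.1 CPM in CXB12/HiAJ and 2085 and 1842 CPM in CXB13/HiAJ. The groups did not overlap: CXB4/ByJ and CXB12/HiAJ were low with C57BL/6J, and the other CXB strains were high with BALB/cJ. The parental log2 difference was 3.55 (SE 0.23, edgeR adjusted p = 1.65e-06), and the strain terms within CXB passed with adjusted p = 0.000198. Myh6 itself did not pass between the parents, with a log2 difference of 0.10. Ppp1r3e, a glycogen-targeting subunit of protein phosphatase 1 encoded on the same chromosome, was higher in C57BL/6J by 2.00 on the log2 scale, a call lost without any 1 of the parental libraries (adjusted p = 0.0639 to 0.215), and divided the strains in the same way. CXB4/ByJ and CXB12/HiAJ stood at its C57BL/6J level, with positions of 0.20 and 0.14.

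Acta1 (chromosome 8) measured 2806 CPM in the BALB/cJ male, 1502 CPM in the female, and 138.1, 181.98 and 19.6 CPM in C57BL/6J. CXB11/HiAJ had 2667 and 1347 CPM and CXB12/HiAJ 1995 and 1459 CPM. The other strains were low or intermediate, with 448 and 532 CPM in CXB4/ByJ, 69.9, 102.3 and 48.6 CPM in CXB6/ByJ, 316 CPM in CXB7/ByJ and 236 and 206 CPM in CXB13/HiAJ. CXB11/HiAJ and CXB12/HiAJ thus overlapped BALB/cJ, and no other CXB library exceeded 531.5 CPM. The parental difference was 4.48 on the log2 scale (SE 0.62, edgeR adjusted p = 0.000778), with adjusted p = 0.000766 within CXB.

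Actc1 (chromosome 2) ran the other way, with 2093 and 2728 CPM in BALB/cJ and 5969, 5416 and 3813 CPM in C57BL/6J. CXB11/HiAJ had 2937 and 3132 CPM and CXB12/HiAJ 2799 and 2826 CPM. The other 8 CXB libraries had 4861 to 6827 CPM, so the strains with little cardiac actin transcript were those with much skeletal actin transcript. BALB/c mice are known for a partial duplication at the cardiac actin locus with raised skeletal actin in the heart. Fmn1, an actin-nucleating formin on the same chromosome, was higher in BALB/cJ by 5.06 on the log2 scale, and the same 2 strains stood at its BALB/cJ level with positions of 0.98 and 1.03. The Actc1 difference was -1.05 (SE 0.22, edgeR adjusted p = 0.0101), with adjusted p = 0.0208 within CXB. Without the BALB/cJ male the parental difference was -0.82 and did not pass (adjusted p = 0.202), and without any 1 library of CXB11/HiAJ, CXB12/HiAJ or CXB13/HiAJ, or the second CXB6/ByJ female, the adjusted p within CXB was 0.0616 to 0.106.

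Tnni3k (chromosome 3), a cardiomyocyte kinase that binds troponin I, measured 21 and 21.5 CPM in BALB/cJ and 85.5, 83.1 and 64.8 CPM in C57BL/6J. CXB6/ByJ (14.1, 17.9 and 16.0 CPM), CXB11/HiAJ (25.3 and 23.4 CPM) and CXB12/HiAJ (21.9 and 19.4 CPM) were low. CXB4/ByJ (85 and 79.5 CPM), CXB7/ByJ (65.4 CPM) and CXB13/HiAJ (79 and 75.6 CPM) were high, and no library lay between 25.3 and 64.8 CPM. The parental log2 difference was -1.85 (SE 0.14, edgeR adjusted p = 8e-06), with adjusted p = 7.48e-05 within CXB.

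Myh2 (chromosome 11), the heavy chain of fast type IIa skeletal fibres, measured 6.07 and 5.87 CPM in BALB/cJ and at most 0.115 CPM in C57BL/6J. CXB6/ByJ (4.15, 6.92 and 3.54 CPM), CXB11/HiAJ (5.08 and 4.82 CPM) and CXB13/HiAJ (5.45 and 4.86 CPM) were high, CXB4/ByJ (0.147 CPM in both libraries) and CXB12/HiAJ (0.0638 and 0.0785 CPM) were near silent, and CXB7/ByJ had 1.44 CPM. The parental difference was 6.24 (SE 0.38, edgeR adjusted p = 1.03e-06). The fast fibre genes Myh1 and Myh4 were below the detection filter. Myom2, an M-band protein, was higher in BALB/cJ by 0.93 (adjusted p = 0.00408), and Dysf, a membrane repair protein, by 0.78 (adjusted p = 0.00146). Without the BALB/cJ male Myom2 did not pass, at the same difference (adjusted p = 0.0513). Dysf did not pass among the CXB strains (adjusted p = 0.0597), where its libraries ranged from 64.8 to 117.5 CPM.

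**Figure D3:**
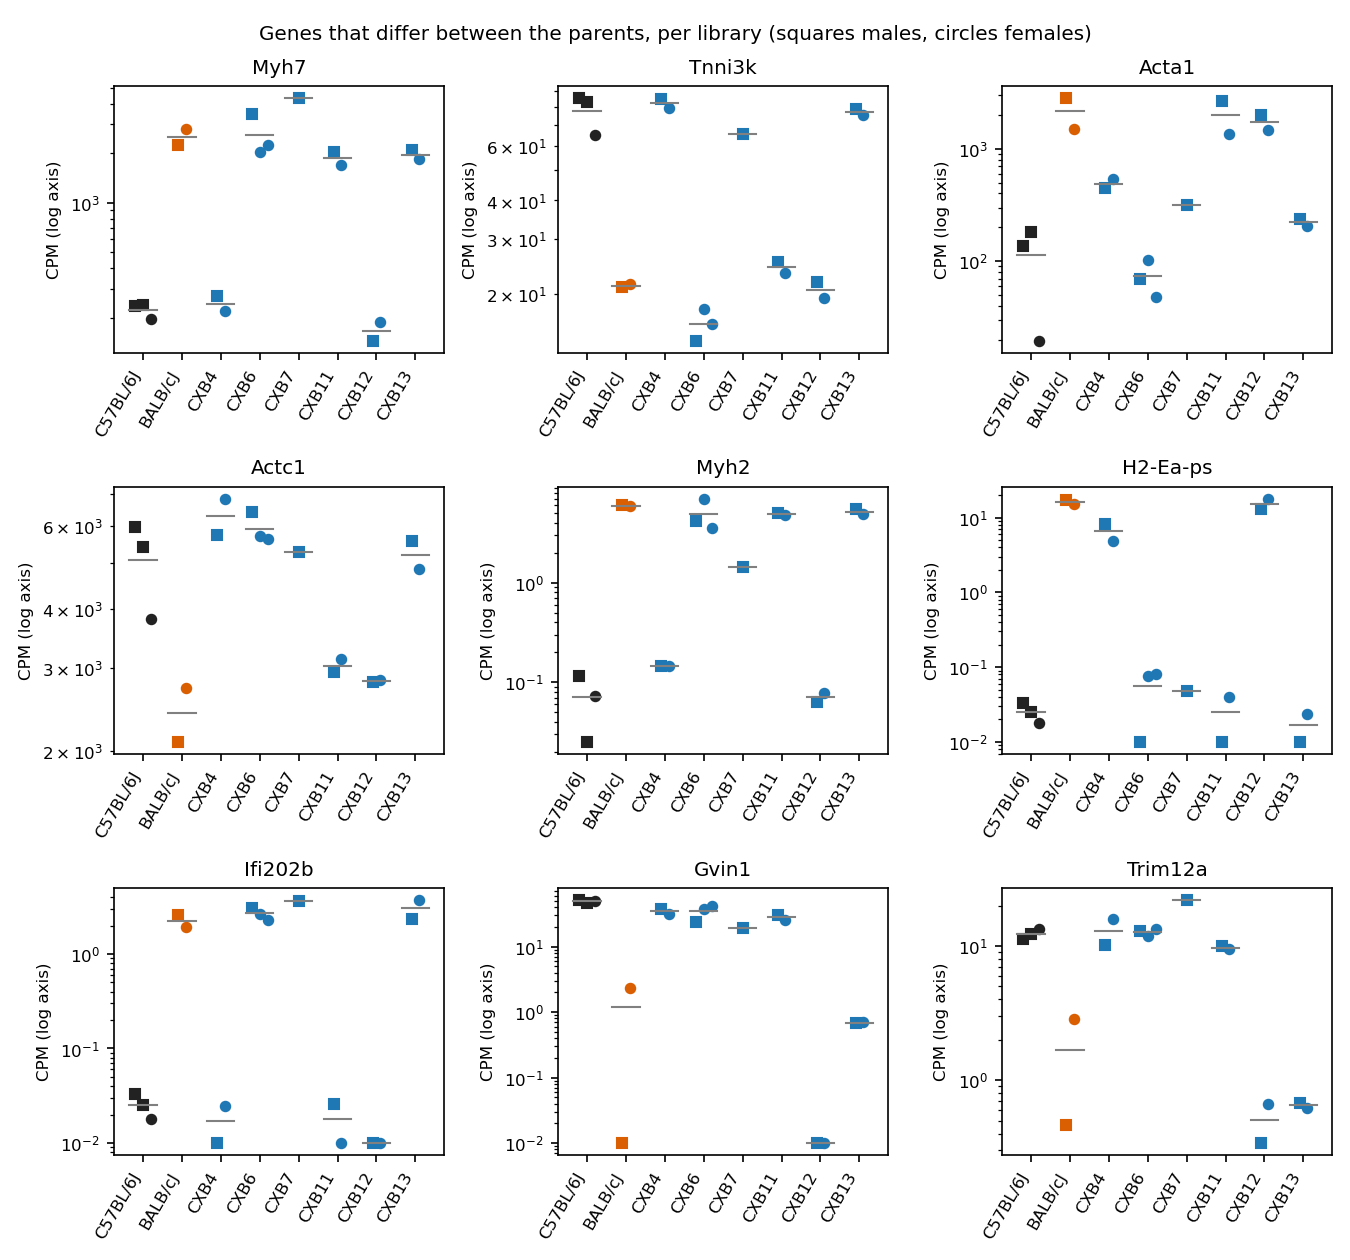
Levels of 9 genes in each library (y axis, CPM on a log axis, values under 0.01 drawn at 0.01) by strain (x axis), with squares for males, circles for females and grey lines for the strain means. For Myh7, Tnni3k, Actc1, H2-Ea-ps and Ifi202b the CXB strains fall with one parent or the other, and Acta1 also has intermediate strains.

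Ion channel and pump genes, which shape the cardiac action potential and calcium cycling, were compared in the same way. Of 35 tested, 2 were higher in BALB/cJ and 4 higher in C57BL/6J (4.17% and 2.74% of all genes), with a median of -0.15. The calls depended on single libraries: without the BALB/cJ male 1 was higher and 0 lower (7 lower at an unadjusted p under 0.05), with a median of 0.01, and without the second C57BL/6J male 1 was higher and 1 lower. Under limma 1 was higher and 0 lower (1 lower at an unadjusted p under 0.05). Scn4b, a sodium channel beta subunit, measured 198.2 and 168.2 CPM in BALB/cJ and 51.9, 60.4 and 33.1 CPM in C57BL/6J. CXB11/HiAJ had 212.1 and 168.02 CPM, CXB12/HiAJ 137.5 and 110.7 CPM and CXB13/HiAJ 103.3 and 95.4 CPM, while CXB4/ByJ, CXB6/ByJ and CXB7/ByJ had 39.6 to 74.3 CPM. The difference between the parents was 1.98 (SE 0.25, edgeR adjusted p = 0.00039). Cacna1g, a T-type calcium channel, was lower in BALB/cJ by 0.96 (adjusted p = 0.00474) and did not pass without the BALB/cJ male (adjusted p = 0.107). Atp2a2, the sarcoplasmic calcium pump, passed among the CXB strains (adjusted p = 0.0397) with 2936 CPM in CXB7/ByJ and 7385 to 10061 CPM in the other 11 CXB libraries. It did not pass without CXB7/ByJ (adjusted p = 0.867), nor without the 3 libraries with low levels of long genes.

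Interferon-stimulated genes, which cells switch on in response to viruses and inflammatory signals, included many that were lower in BALB/cJ. Of 64 tested, 31 were lower in BALB/cJ and 2 were higher (2.74% and 4.17% of all genes), with a median log2 difference of -0.75 against 0.01 for all genes. The parental libraries did not overlap for the 31 genes, as for 37.2% of all genes tested, and their median was -1.26. The BALB/cJ male was lower than the female in 26 of them. The count lower in BALB/cJ was 13 without the BALB/cJ male and 17 without the female, and ranged from 6 to 34 over all alternatives tried.

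The genes lower in BALB/cJ encoded the signalling factors Stat2 and Irf7, the antiviral enzymes Oas2 and Rsad2, the guanylate-binding proteins Gbp2, Gbp3, Gbp5, Gbp6, Gbp7 and Gbp9, the immunity-related GTPases Irgm1, Irgm2, Igtp and Iigp1, and restriction factors of the Trim and Apobec3 families. Rsad2, which makes an antiviral nucleotide, measured 3.95 and 6.49 CPM in BALB/cJ against 19.9, 20.5 and 25.2 CPM. It was lower in BALB/cJ by 2.09 on the log2 scale (SE 0.37, edgeR adjusted p = 0.0036). Without the BALB/cJ male it did not pass, with a difference of -1.80 (adjusted p = 0.0899).

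In the CXB strains this group divided. As a mean of the 6 strains, 16 of the 31 genes were higher than in BALB/cJ and 11 lower than in C57BL/6J (edgeR, 1.18% and 2.08% of all genes in those directions). The 31 were chosen as lower in BALB/cJ on these same libraries, so the counts are a description. Among all 417 genes lower in BALB/cJ, 33.6% were higher in the CXB mean than in BALB/cJ and 43.9% lower than in C57BL/6J, and among the 31 the shares were 51.6% and 35.5%. Over the whole list the 16 genes above BALB/cJ became 1 without the BALB/cJ male, 6 without the female, 0 under library totals and 0 or 1 under limma. The 12 below C57BL/6J became 5 or 4 without one or the other C57BL/6J male. Of the 31, 14 varied among the CXB strains (45.2%), below the 54.2% of all genes lower in BALB/cJ and above the 10.7% of all genes. Without the 3 libraries with low levels of long genes 7 varied (22.6%, against 41.7% and 5.46%): Ifi206, Ifi213, Ifit3, Trim12a, Trim30d, Trim34a and Trim5. All but Ifit3 belong to gene clusters on chromosomes 1 and 7. CXB7/ByJ had the highest level of all libraries for Irf7 (28.3 CPM, others 5.19 to 16.7) and Oas2 (24.5 CPM, others 3.69 to 11.8). Genes of the length class of both, the second shortest 25%, were shifted by 0.07 on the log2 scale in that library.

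The chromosome 7 cluster separated CXB12/HiAJ and CXB13/HiAJ from the other strains. Trim12a and Trim5 belong to a family of capsid-binding restriction factors. Trim12a measured 0.46 and 2.88 CPM in BALB/cJ and 11.2, 12.4 and 13.4 CPM in C57BL/6J. It measured 0.34 and 0.667 CPM in CXB12/HiAJ and 0.673 and 0.623 CPM in CXB13/HiAJ, and 9.54 to 22 CPM in the other 8 CXB libraries. The low CXB libraries lay with BALB/cJ, and no CXB library fell between. The parental difference was -3.05 (SE 0.46, edgeR adjusted p = 0.00134), with adjusted p = 6.68e-05 within CXB. It was -4.67 without the BALB/cJ female (SE 0.35, adjusted p = 2.27e-05).

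Trim30d, Trim34a, Trim5 and the interferon-inducible large GTPase Gvin1, all on the same stretch of chromosome 7, repeated this division. Gvin1 had 0 CPM in the BALB/cJ male, 2.37 CPM in the female and 51.4, 47.2 and 49.5 CPM in C57BL/6J. It had 0 CPM in both CXB12/HiAJ libraries, 0.673 and 0.694 CPM in CXB13/HiAJ and 19.5 to 42.5 CPM in the other CXB libraries. The parental difference of Gvin1 was -5.54 (SE 0.83, adjusted p = 0.00186). It passed without the BALB/cJ female (adjusted p = 3.49e-06), where BALB/cJ was at 0 and no fold is given. Trim34b was the reverse, with 1.78 and 1.80 CPM in BALB/cJ, 1.87 to 2.37 CPM in CXB12/HiAJ and CXB13/HiAJ and at most 0.252 CPM in any other library. Its log2 difference was 3.73 (SE 0.58, edgeR adjusted p = 0.00175). Trim34a and Trim34b are close copies, and how reads were divided between them was not tested.

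The chromosome 1 cluster of Ifi200 genes, which encode sensors and regulators that bind DNA or other nuclear proteins, divided the strains differently. Ifi202b measured 2.59 and 1.91 CPM in BALB/cJ and at most 0.033 CPM in C57BL/6J (4 counts over the 3 libraries). CXB6/ByJ (3.09, 2.67 and 2.29 CPM), CXB7/ByJ (3.64 CPM) and CXB13/HiAJ (2.35 and 3.71 CPM) were at the BALB/cJ level, and no library of CXB4/ByJ, CXB11/HiAJ or CXB12/HiAJ exceeded 0.0256 CPM. Ifi213 had the opposite levels, with 0.239 and 0.48 CPM in BALB/cJ and 2.21, 2.36 and 3.41 CPM in C57BL/6J. It measured 0.192 to 0.36 CPM in CXB6/ByJ, CXB7/ByJ and CXB13/HiAJ, and 1.4 to 2.55 CPM in the other CXB strains. Ifi206 was represented by 1 count in BALB/cJ, measured 0.593, 0.803 and 1.05 CPM in C57BL/6J, and was likewise at or below 0.0192 CPM in the strains with Ifi202b.

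Promoters of 4 genes lower in BALB/cJ are shown because factors of the STAT and IRF families bind repeated GAAA elements near the start of interferon-stimulated genes. The sequences are from RefSeq on GRCm38.p6, a genome of C57BL/6J, and run from 250 bases before to 50 bases after the gene start in the direction of transcription, all from the minus strand. Capitals mark GAAANNGAAA read on either strand. The 4 genes were picked in order of their difference from those whose promoter held this element, so its presence in all 4 was fixed by the choice. Ifi206 lies at chr1:173491269-173491568, Ifi213 at chr1:173599223-173599522, Trim12a at chr7:104315446-104315745 and Trim30d at chr7:104507800-104508099.
Ifi206: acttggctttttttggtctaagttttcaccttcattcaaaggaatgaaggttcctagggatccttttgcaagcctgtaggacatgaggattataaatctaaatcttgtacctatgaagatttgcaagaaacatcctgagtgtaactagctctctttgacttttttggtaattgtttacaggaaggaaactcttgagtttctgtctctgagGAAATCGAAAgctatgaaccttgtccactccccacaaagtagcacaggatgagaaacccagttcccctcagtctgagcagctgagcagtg
Ifi213: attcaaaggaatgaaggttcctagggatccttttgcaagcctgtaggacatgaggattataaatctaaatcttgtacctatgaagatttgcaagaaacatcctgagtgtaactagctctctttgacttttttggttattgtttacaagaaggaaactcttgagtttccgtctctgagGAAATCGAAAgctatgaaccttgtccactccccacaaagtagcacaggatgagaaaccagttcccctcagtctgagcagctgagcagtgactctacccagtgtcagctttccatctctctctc
Trim12a: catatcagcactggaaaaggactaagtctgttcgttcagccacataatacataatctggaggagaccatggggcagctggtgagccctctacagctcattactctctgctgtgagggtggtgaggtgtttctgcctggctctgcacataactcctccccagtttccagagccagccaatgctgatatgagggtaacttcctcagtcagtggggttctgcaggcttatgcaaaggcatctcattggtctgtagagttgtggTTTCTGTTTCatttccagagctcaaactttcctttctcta
Trim30d: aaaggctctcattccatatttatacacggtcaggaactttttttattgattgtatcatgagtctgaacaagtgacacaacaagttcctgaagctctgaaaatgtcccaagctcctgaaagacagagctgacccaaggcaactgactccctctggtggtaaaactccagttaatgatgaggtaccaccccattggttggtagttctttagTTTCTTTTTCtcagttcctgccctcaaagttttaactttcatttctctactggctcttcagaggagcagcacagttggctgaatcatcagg

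The element was present in 22 of the 24 genes lower in BALB/cJ that had a promoter entry (91.7%) and in 35 of 47 genes of the whole interferon list (74.5%). It was present in 1079 of 27025 genes with an entry (3.99%) and in 3.44% of all 32851 promoters of that length. Ifi206 and Ifi213 are near-identical copies over most of the window. The sequence carries no BALB/cJ alleles, and a match is a description of letters, not of binding.

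At some genes of the major histocompatibility complex on chromosome 17, CXB4/ByJ and CXB12/HiAJ were with BALB/cJ and the other CXB strains with C57BL/6J. C57BL/6J carries the H2b haplotype, which does not make the class II E-alpha chain, and BALB/c carries H2d, which does. H2-Ea-ps, the E-alpha gene as annotated on the C57BL/6J genome, measured 17.2 and 15 CPM in BALB/cJ and at most 0.033 CPM in C57BL/6J (4 counts in all). It measured 8.21 and 4.81 CPM in CXB4/ByJ and 12.9 and 17.6 CPM in CXB12/HiAJ, and no other CXB library exceeded 0.0798 CPM. The log2 difference was 9.16 (SE 0.47, edgeR adjusted p = 1.89e-07), with adjusted p = 6.65e-05 within CXB. H2-Q2, a class I gene, divided the strains identically, with 5.58 and 6.25 CPM in CXB4/ByJ, 4.64 and 8.79 CPM in CXB12/HiAJ and at most 0.0846 CPM in the other CXB libraries.

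Of 34 antigen presentation genes, 4 were higher and 6 lower in BALB/cJ (4.17% and 2.74% of all genes), and 20 varied among CXB strains (10.7% of all genes), or 7 without the 3 libraries with low levels of long genes (5.46%). Over the alternatives 2 to 4 were higher and 1 to 9 lower in BALB/cJ, with 2 lower without the BALB/cJ male. H2-K1, a classical class I heavy chain, was lower in BALB/cJ by 1.61 (SE 0.23, adjusted p = 0.00103) with 29.2 and 53.3 CPM against 94.6, 135.3 and 109.3 CPM. Among the CXB males it measured 53.5 CPM in CXB4/ByJ and 46.1 CPM in CXB12/HiAJ, against 57.1 to 181.03 CPM in the other strains. Among the CXB females it measured 68.4 and 76.5 CPM in these strains, against 92.45 to 112.87 CPM in the others. CXB4/ByJ and CXB12/HiAJ were thus lowest within each sex, but with the sexes pooled their libraries overlapped those of the other CXB strains. The reference transcripts are of the C57BL/6J haplotype, and how far H2d reads failed to match them was not tested. Msh5 and Dnah8 on the same chromosome, a meiotic repair protein and an axonemal dynein chain, were also at the BALB/cJ level in CXB4/ByJ and CXB12/HiAJ alone. Glo1, the glyoxalase that detoxifies methylglyoxal, did not differ between the parents (adjusted p = 0.896, 53.9 to 66.5 CPM). It stood at 120.3 and 148.6 CPM in CXB4/ByJ and 127.7 and 115.8 CPM in CXB12/HiAJ, above the 61 to 92.5 CPM of the other CXB libraries (adjusted p = 0.0271 within CXB, and 0.0709 to 0.0998 without any 1 library of CXB11/HiAJ, CXB12/HiAJ or CXB13/HiAJ, or the second CXB6/ByJ female).

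Among protein-coding genes, the largest named differences toward BALB/cJ were in genes with little or no transcript in C57BL/6J. Aqp6, an intracellular anion-permeable aquaporin, measured 46.8 and 64 CPM in BALB/cJ and at most 0.0824 CPM in C57BL/6J. It measured 36.5 to 76.9 CPM in CXB4/ByJ, CXB11/HiAJ and CXB12/HiAJ, 7.8 CPM in CXB7/ByJ and at most 0.192 CPM in CXB6/ByJ and CXB13/HiAJ. CXB7/ByJ was the only strain between the parents. The log2 difference was 9.49 (SE 0.41, edgeR adjusted p = 9.74e-08).

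Ptprn2, a membrane protein of dense-core vesicles, measured 16.3 and 13 CPM in BALB/cJ and at most 0.1 CPM in C57BL/6J. CXB6/ByJ, CXB11/HiAJ and CXB12/HiAJ had 13.2 to 24.9 CPM and the other strains at most 0.144 CPM. Its log2 difference was 7.80 (SE 0.25, edgeR adjusted p = 6.17e-09).

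Tmprss4, a membrane serine protease, was represented by 1 count in C57BL/6J and 160 in BALB/cJ, and was at the BALB/cJ level in CXB7/ByJ, CXB11/HiAJ and CXB12/HiAJ. CXB13/HiAJ lay between the parents, with 0.36 and 0.455 CPM.

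Toward C57BL/6J, Nxpe4 measured 8.27, 8.61 and 8.11 CPM in C57BL/6J and 0.349 and 0.17 CPM in BALB/cJ. CXB4/ByJ, CXB6/ByJ and CXB13/HiAJ had 5.42 to 10.1 CPM and CXB7/ByJ, CXB11/HiAJ and CXB12/HiAJ at most 0.359 CPM. The log2 difference was -5.02 (SE 0.29, edgeR adjusted p = 6.22e-07). Rab6b, a GTPase of Golgi transport, was low in CXB4/ByJ, CXB7/ByJ and CXB11/HiAJ (0.333 to 1.25 CPM) and high in CXB6/ByJ, CXB12/HiAJ and CXB13/HiAJ (8.96 to 18.3 CPM).

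Rps2, a protein of the small ribosomal subunit, differed between the BALB/cJ libraries, with 5.74 CPM in the BALB/cJ male, 58.2 CPM in the female and 292 to 419 CPM in C57BL/6J. CXB4/ByJ, CXB12/HiAJ and CXB13/HiAJ had 5.0 to 9.6 CPM and the other CXB strains 287 to 842 CPM. How reads were divided between Rps2 and similar transcripts was not tested, so the low values need not mean that the gene was nearly silent. The parental difference was -3.74 (SE 0.68, edgeR adjusted p = 0.00463), and -5.92 without the BALB/cJ female (SE 0.43, adjusted p = 1.5e-05).

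Ctla4, an inhibitory receptor of T cells, measured 3.41, 3.76 and 4.51 CPM in C57BL/6J and 0.0184 and 0.511 CPM in BALB/cJ. Only CXB13/HiAJ, with 2.6 and 1.6 CPM, came near C57BL/6J among the CXB strains, the others having at most 0.359 CPM. The difference was -3.81 (SE 0.88, edgeR adjusted p = 0.0215), and -2.67 without the BALB/cJ male, where it did not pass (adjusted p = 0.127). The fitted value without the BALB/cJ female was -7.73 (adjusted p = 0.0039), resting on 1 count in the BALB/cJ male. It did not pass without the C57BL/6J female (adjusted p = 0.114) or the second C57BL/6J male (adjusted p = 0.0514). T- and B-cell markers summed to 1.06 to 4.52 CPM in these libraries, with 4.52 CPM in the C57BL/6J female, which also had the highest Ctla4. Cxcl9, a chemokine induced by interferon gamma, measured 0.239 and 0.774 CPM in BALB/cJ against 3.91, 7.28 and 4.67 CPM in C57BL/6J. All CXB libraries, at 1.87 to 6.45 CPM, were above BALB/cJ, and the CXB mean exceeded BALB/cJ by 2.84 (SE 0.39, adjusted p = 0.00129).

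Among the largest differences, 3 belonged to extra copies of a gene on another chromosome, and these were looked at together after their values had been seen. Hmga1b on chromosome 11 is a copy of Hmga1, a chromatin architectural protein encoded on chromosome 17. Hmga1b measured 22.2 and 22.7 CPM in BALB/cJ, 20.8 and 35.7 CPM in CXB4/ByJ, 23.3 and 25.2 CPM in CXB12/HiAJ and at most 1.27 CPM elsewhere. Hmga1 was low in just those strains, at 8.99 to 16.0 CPM against 32.6 to 45 CPM in all other libraries. The sum of both lay between 30.7 and 46.5 CPM in every library.

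The copy of the cytoskeletal tropomyosin Tpm3, Tpm3-rs7, was high in BALB/cJ (27.1 and 20.2 CPM), CXB7/ByJ (36.3 CPM) and CXB13/HiAJ (21.4 and 23.4 CPM) and at most 0.973 CPM elsewhere. Tpm3 was at 12.7 to 16.3 CPM in those strains and at 26.2 to 46.3 CPM in the others, and the sum ranged from 26.4 to 51.6 CPM. The copy of the glycolytic enzyme Eno1, Eno1b, was high in BALB/cJ (48.4 and 39 CPM) and CXB11/HiAJ (52.8 and 44.6 CPM) and at most 1.68 CPM elsewhere. Eno1 was at 46 to 58.4 CPM in those strains and at 87.2 to 126.9 CPM in the others, and the sum ranged from 87.8 to 127.5 CPM. The CXB strains with Hmga1b were the 2 at the BALB/cJ level of H2-Q2 on chromosome 17, where Hmga1 lies. How the reads of each pair were divided between near-identical transcripts was not tested.

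**Figure D4:**
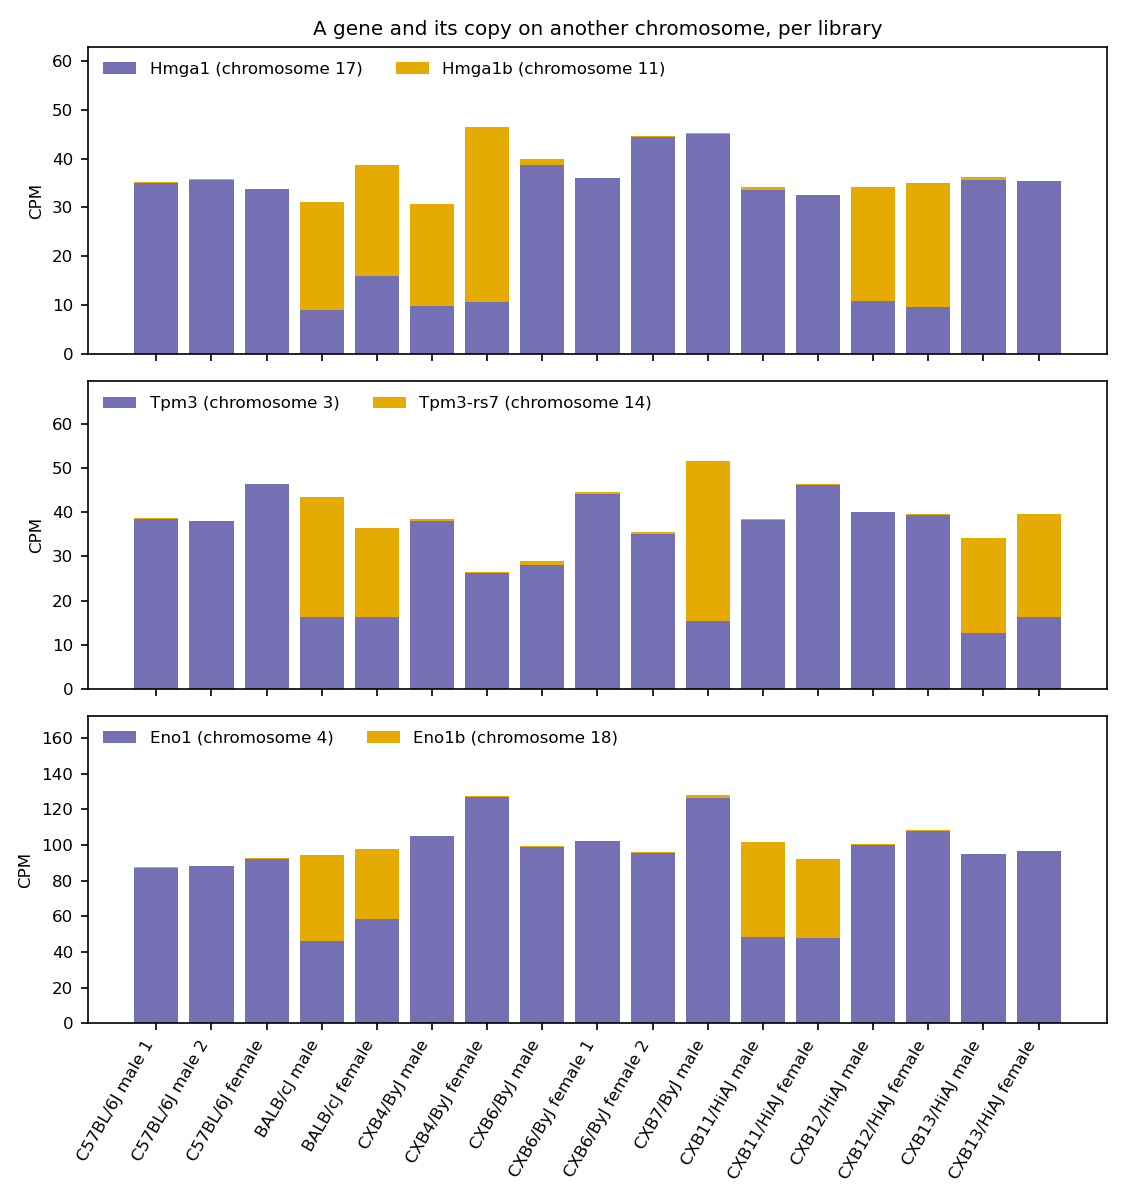
Levels of Hmga1, Tpm3 and Eno1 (purple) and of their copies on other chromosomes (yellow) in each library, stacked (y axis, CPM from 0). The copy is visible only in BALB/cJ and in 1 or 2 CXB strains, where the gene itself is lower and the total is similar.

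Not every parental difference reappeared among the CXB strains. Of 194 genes assigned in all 6 strains, 6 were at the C57BL/6J level and 7 at the BALB/cJ level throughout. The others were at the BALB/cJ level in 1 strain (13 genes), 2 strains (51), 3 strains (53), 4 strains (35) or 5 strains (29). The 6 genes at the C57BL/6J level throughout were Thbs4, Pacsin1, Moxd1, Por, Patj and Ahnak2, all of them protein coding and higher in BALB/cJ than in any CXB library. Moxd1 lay below C57BL/6J (0.379 to 0.602 CPM) in CXB4/ByJ, CXB6/ByJ and CXB7/ByJ, at positions of -0.87, -1.84 and -1.75. Its CXB mean was lower than C57BL/6J by 1.11 (adjusted p = 0.0282), and it varied among the CXB strains (edgeR adjusted p = 0.0172). Wdfy1, Dynlt1b and Rab4a were the 3 protein-coding genes at the BALB/cJ level throughout.

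Por, the reductase that supplies electrons to microsomal cytochromes P450, measured 83.5 and 73.7 CPM in BALB/cJ and 37.6, 35.2 and 29.9 CPM in C57BL/6J. The CXB libraries had 27.2 to 40.5 CPM. The CXB mean was lower than BALB/cJ by 1.25 on the log2 scale (SE 0.11, edgeR adjusted p = 4.49e-05) and differed from C57BL/6J by -0.02 (SE 0.11, adjusted p = 0.907). Thbs4, a matricellular thrombospondin, measured 19.3 and 14.8 CPM in BALB/cJ and 2.05 to 4.55 CPM in C57BL/6J. The CXB libraries had 2.74 to 5.88 CPM, below BALB/cJ by 2.17 (SE 0.18, adjusted p = 3.11e-05).

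Patj, a scaffold of cell polarity complexes, measured 38.4 and 33.7 CPM in BALB/cJ and 11.6 to 21.3 CPM in every other library. Against the other 98 strains of the series, BALB/cJ had the highest strain mean for Patj and for Moxd1, and the second highest for Por and Thbs4.

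Zhx2, a transcriptional repressor that is disrupted by an insertion in BALB/cJ but not in other BALB/c sublines, measured 1.14 and 5.03 CPM in BALB/cJ and 27.8, 25.5 and 25.1 CPM in C57BL/6J. The CXB libraries had 18.3 to 24.3 CPM except CXB7/ByJ with 9.22 CPM. BALB/cJ was the lowest of all strains of the series. The difference was -3.16 (SE 0.41, edgeR adjusted p = 0.000498), and the CXB mean exceeded BALB/cJ by 2.64 (SE 0.37, adjusted p = 0.00155). Leaving out the BALB/cJ female moved the first to -4.52 (adjusted p = 9.68e-07) and the second to 4.03 (adjusted p = 3.21e-06).

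Wdfy1, an endosomal adaptor, showed the opposite case, with 32.3 and 27.6 CPM in BALB/cJ and 6.43, 6.85 and 5.79 CPM in C57BL/6J. All CXB libraries had 19.8 to 30.9 CPM and none overlapped C57BL/6J. The CXB mean exceeded C57BL/6J by 1.92 (SE 0.09, edgeR adjusted p = 9.61e-07). It was lower than BALB/cJ by 0.35 (SE 0.09, adjusted p = 0.0441), a call lost without any 1 of the parental libraries (adjusted p = 0.0691 to 0.451). Entpd4, a Golgi nucleotidase, measured 38.7 and 42.1 CPM in BALB/cJ and 77.2, 79.8 and 69.6 CPM in C57BL/6J. The CXB libraries had 38.3 to 47.9 CPM, apart from 19 CPM in CXB7/ByJ. The CXB mean was lower than C57BL/6J by 1.02 (SE 0.07, adjusted p = 8.33e-06). Entpd4b, its close copy, was lower in the CXB mean than in C57BL/6J by 0.82 (adjusted p = 0.00191). Its parental difference of -0.83 (adjusted p = 0.0128) did not pass without the BALB/cJ male (adjusted p = 0.201), the BALB/cJ female (adjusted p = 0.0662) or the C57BL/6J female (adjusted p = 0.0562).

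Nnt, the transhydrogenase that makes NADPH in the mitochondrial matrix, carries a multi-exon deletion in C57BL/6J. Its 2 gene identifiers, summed, gave 552.9 and 640.5 CPM in BALB/cJ and 315.7, 312.2 and 277.6 CPM in C57BL/6J. The CXB libraries had 544.5 to 752.4 CPM except CXB7/ByJ with 287.8 CPM. The log2 difference between the parents was 0.99 (SE 0.12, edgeR adjusted p = 0.000373). In CXB7/ByJ, the library with the lowest levels of long genes, Nnt, Entpd4 and Zhx2 all stood below the other CXB strains. For Nnt the shortfall lay in ENSMUSG00000116207, at 50.5 CPM against 239 to 428 CPM in the other CXB libraries, while ENSMUSG00000025453 was at 237 CPM, within their 189 to 387 CPM. Genes of the same length class were shifted in that library by -0.47 on the log2 scale for Entpd4, by -0.19 and 0.07 for the Nnt identifiers and by 0.07 for Zhx2. Of 52 redox genes, the 2 Nnt identifiers passed between the parents (6.91% of all genes did). Over the alternatives 0 to 3 redox genes were higher and 0 or 1 lower in BALB/cJ, with 0 passing by edgeR without the BALB/cJ female, where 7 had an unadjusted p under 0.05.

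**Figure D5:**
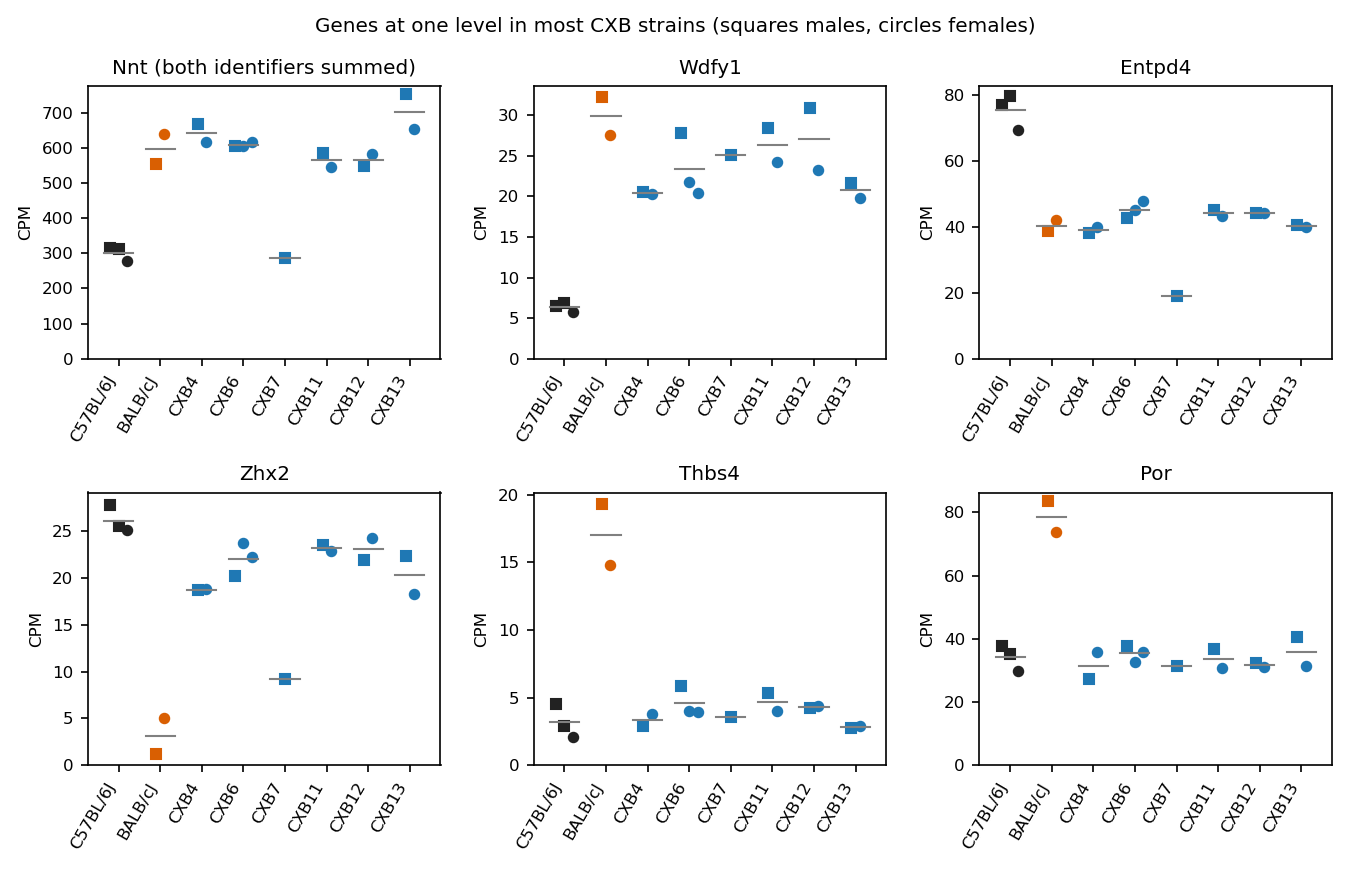
Levels of Nnt (both identifiers summed), Wdfy1, Entpd4, Zhx2, Thbs4 and Por in each library (y axis, CPM from 0) by strain (x axis), with squares for males, circles for females and grey lines for the strain means. CXB libraries lie with BALB/cJ for Nnt, Wdfy1 and Entpd4 and with C57BL/6J for Zhx2, Thbs4 and Por, with CXB7/ByJ apart for Nnt, Entpd4 and Zhx2.

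Against BALB/cJ as a whole, the CXB mean was higher for 180 genes and lower for 538 (4.72% of genes), and against C57BL/6J it was higher for 241 and lower for 316 (3.66%). The first total of 718 genes fell to 125 without the BALB/cJ male and 354 without the female, and the second of 557 to between 252 and 291 without any 1 of the C57BL/6J libraries. Under limma on log2(TPM + 1) 3.73% of the first and 58.5% of the second were higher in the CXB mean, against 25.1% and 43.3% here. Markers of myocardial stress and extracellular matrix were among those lower than BALB/cJ. Of 29 tested, 7 were higher in BALB/cJ than in C57BL/6J (4.17% of all genes), with a median of 0.77, and 11 were lower in the CXB mean than in BALB/cJ (3.54% of all genes), with a median of -0.85. Without the BALB/cJ male the medians were 0.27 and -0.39, and 2 were lower in the CXB mean. By edgeR, DESeq2 or limma 0 were lower in BALB/cJ than in C57BL/6J, also at an unadjusted p under 0.05. Only 3 of the 7 passed without the BALB/cJ male, and 14 passed without the 3 libraries with low levels of long genes.

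Ccn2, a matricellular growth factor, measured 156.4 and 163.6 CPM in BALB/cJ and 22.9, 33.2 and 30.2 CPM in C57BL/6J, with 31.4 to 100.7 CPM in the CXB libraries. The parental difference was 2.47 (SE 0.23, edgeR adjusted p = 3.9e-05). Nppb, the B-type natriuretic peptide, measured 159.3 and 250.5 CPM against 33.8, 42.2 and 23.7 CPM, and reached 243 and 256 CPM in CXB12/HiAJ. Its difference was 2.60 (SE 0.42, adjusted p = 0.00217). Ankrd1, a stress-responsive titin-binding protein, measured 2260 and 1159 CPM in BALB/cJ against 485.6, 591.9 and 140.6 CPM, and did not pass without the BALB/cJ male (adjusted p = 0.0709). Spp1, osteopontin, measured 21.8 CPM in the BALB/cJ male and 0.186 CPM in the female, so that its fitted difference of 4.65 became -0.70 without the male. By edgeR 0 of the 29 varied among the CXB strains in the 12 libraries, with 11 at an unadjusted p under 0.05, 14 passing by DESeq2 and 2 by limma. Nppb and Ankrd1 passed by edgeR without the 3 libraries with low levels of long genes.

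Genes of energy metabolism were then compared. None of the 79 oxidative phosphorylation genes passed between the parents by edgeR, against 6.91% of all genes (3 had an unadjusted p under 0.05), 2 passed by DESeq2, 0 by limma, and at most 3 under any alternative. Of 57 lipid genes 3 passed, a share near that of all genes. Plin2, a lipid droplet protein, was higher in BALB/cJ by 1.04 (SE 0.19, edgeR adjusted p = 0.004), with 89.5 and 67.1 CPM against 38.2, 43.1 and 34.5 CPM. Acot1, a fatty acyl-CoA thioesterase, was lower by 1.43 (SE 0.37, adjusted p = 0.0356), and Acaa1a, a peroxisomal thiolase, by 0.68 (SE 0.13, adjusted p = 0.00724). None of the 3 passed without the BALB/cJ male (adjusted p = 0.104, 0.285 and 0.168). Acot1 also did not pass without the BALB/cJ female (adjusted p = 0.165), the C57BL/6J female (adjusted p = 0.147) or the second C57BL/6J male (adjusted p = 0.108). Acaa1a was at 27.3 to 28.4 CPM in CXB11/HiAJ and CXB12/HiAJ, close to BALB/cJ (24.7 and 28.9 CPM), and at 39.9 to 51.8 CPM in the other CXB strains, close to C57BL/6J (39.6, 45 and 43.8 CPM).

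Of 18 clock genes only Arntl passed between the parents, lower in BALB/cJ by 2.44 (SE 0.61, adjusted p = 0.0314), and 9 varied among the CXB strains (6.91% and 10.7% of all genes). Without the first C57BL/6J male 6 were higher and 2 lower in BALB/cJ. The libraries of Arntl overlapped, with 0.772 and 5.53 CPM in BALB/cJ and 3.16, 14.4 and 18 CPM in C57BL/6J. Without the BALB/cJ male the difference was -1.89 (adjusted p = 0.323), and it also did not pass without the C57BL/6J female (adjusted p = 0.057) or the second C57BL/6J male (adjusted p = 0.0665). The hour of collection is not given in the sources used here.

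Some genes varied among the CXB strains although the parents were alike. Samd9l, an interferon-inducible antiviral protein, measured 11.2 and 12.3 CPM in BALB/cJ, 14.4, 12.5 and 15.9 CPM in C57BL/6J and 13.1 to 19 CPM in 5 CXB strains, but 0.203 and 0.147 CPM in CXB4/ByJ (edgeR adjusted p = 2.82e-05 within CXB). On the scale of all libraries of the series CXB4/ByJ had a mean of 0.197 CPM, and 1 of the 98 other strains was lower, at 0.063 CPM. Otud3, a deubiquitinase, measured 0.18 and 0.159 CPM in CXB11/HiAJ and 3.96 to 7.91 CPM in every other library, parents included (adjusted p = 0.000198). On the scale of the whole series CXB11/HiAJ had 0.19 CPM, and the lowest mean of the 98 other strains was 3.59 CPM.

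Arl2bp, a ciliary protein that binds the small GTPase Arl2, measured 42.7 and 38.9 CPM in BALB/cJ, 38.7, 45.2 and 34.2 CPM in C57BL/6J and 41.7 to 48.5 CPM in CXB11/HiAJ and CXB13/HiAJ. CXB4/ByJ, CXB6/ByJ, CXB7/ByJ and CXB12/HiAJ had 13.5 to 21.3 CPM (edgeR adjusted p = 0.00101 within CXB). On the scale of the whole series these 4 strains had means of 16.3 to 22.2 CPM, and the 98 other strains 40.3 to 73.4 CPM. Arc, an activity-regulated cytoskeletal protein, was highest of the CXB and parental strains in CXB11/HiAJ, at 8.95 and 7.25 CPM, with 1.1 to 3.38 CPM in the libraries of the other CXB strains and the parents (adjusted p = 0.000836). Of the 98 other strains of the series 3 had a higher mean, up to 48.4 CPM. For Samd9l, Otud3 and Arc the strain that stood apart did so in both its male and its female library.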

How the data were processed

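RNA from hearts was sequenced from mRNA libraries. The authors quantified reads with kallisto (version 0.46 in the submitters' processing notes) against GRCm38.p6 transcripts with Ensembl annotation. They deposited estimated counts per gene, which need not be whole and were rounded here, and a table of TPM, which the authors normalized to transcript length and library total. Each value column was mapped to a sample by the number in the sample's title. Gene positions and types were taken from GENCODE on GRCm38.p6.

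Counts of the 17 libraries were tested with edgeR 4.0.16 (R 4.3.3), using TMM normalization, genes with at least 0.5 CPM in at least 2 libraries, and a quasi-likelihood F test on strain and sex terms with Benjamini-Hochberg adjustment at 0.05. The strain terms of the 12 CXB libraries were tested in a separate fit. The CXB strains weigh equally in the CXB mean. Levels are CPM scaled by TMM, and positions used log2 CPM with a prior count of 2. Alternatives used DESeq2 1.42.0, limma 3.58.1 on log2(TPM + 1) and log2(TPM + 0.1), library totals, no filter, no sex term, other sets of libraries, other fold and position cutoffs, and each library left out in turn. On simulated counts for the parental comparison (14799 genes) edgeR recovered 68% of 2-fold and 100% of 8-fold changes, with 2.33% false calls. The simulation gave each gene the spread usual for its level and changed only genes at 1 CPM or more. It held no library that stood apart as some did here, so recovery and false calls in the real libraries can be worse.

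Members and gene lists were chosen with earlier results of these data known. Genes were named by rule: the 12 largest non-overlapping parental differences in each direction among protein-coding genes whose symbols are not of the Gm or Rik kind, 7 genes known to differ between sublines, the 6 largest differences with all CXB strains at one level, the 6 smallest p-values for variation among CXB strains without a parental difference, the 3 largest of each list, and cell type markers. Not every gene of the rule is described, and some items are not reported here. Genes outside the rule that are given with values, among them Ankrd1, Ccn2, Dysf, Myom2, Atp2a2, H2-K1, Glo1, Rsad2, Trim12a, Ifi213, Fmn1, Ppp1r3e, Hmga1, Tpm3 and Eno1, were named after their values were seen. Intervals cover counting error only. Same-strain libraries of one sex differed by more than counting error, so none was counted as a repeat of another.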

Additional observations from a re-analysis of the deposited data

How the results depend on the processing

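Counts of genes past the threshold moved with the setting. Under library totals without TMM they were 482 between the parents, 216 for the CXB mean against C57BL/6J, 327 against BALB/cJ and 421 among the CXB strains. On log2(TPM + 1) with limma they were 481, 241, 295 and 349, and on log2(TPM + 0.1) 407, 219, 230 and 360. DESeq2 gave 1119 and 1132 for the CXB mean against C57BL/6J and BALB/cJ and 4437 among the CXB strains, the fit on all libraries of the panel gave 1265 and 1145 for the CXB mean, and no filter gave 2540 among the CXB strains. Leaving out 1 library gave 388 to 803, 252 to 504, 125 to 607 and 526 to 4485 genes in the 4 comparisons, and a mean share at the BALB/cJ level of 37.8% to 48.2%. Chosen after seeing the data, leaving out the BALB/cJ female and the CXB7/ByJ male gave 675 genes between the parents, 295 against BALB/cJ and a share of 37.8%, and leaving out the 3 libraries with low levels of long genes gave 1765 between the parents and 804 among the CXB strains. The cause was not tested in any of these cases. Library totals and TPM moved the median of all genes to 0.16 to 0.22 between the parents, -0.13 to -0.22 against C57BL/6J and -0.29 to -0.43 against BALB/cJ on the log2 scale.

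Of the parental differences of genes named by rule, 731 values kept their direction and side of the threshold, 122 lost the call, 2 gained it and 1 reversed: Spp1, at -0.70 without the BALB/cJ male and 5.78 without the female. For variation among the CXB strains, the 6 genes named for the smallest p-values lost the call in 3 values, all under limma, and in no other. Of all 42 genes named by rule that passed among the CXB strains, 8 lost the call without some 1 library, among them Arntl, Acaa1a, Cacna1g and Entpd4, with adjusted p up to 0.743 (Entpd4 without CXB7/ByJ). With 2 or 3 libraries for each parent and 1 to 3 for each CXB strain, differences of about 2-fold could be missed (68% recovered between the parents on simulated counts), and genes under the filter were not tested. No paired analysis was possible because library numbers in the labels are not shared between strains.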

Other observations

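Tmem150c, which encodes a membrane protein, also varied among the CXB strains without a parental difference (edgeR adjusted p = 0.000498 within CXB). It measured 14.4 and 7.81 CPM in CXB4/ByJ, 16 and 11 CPM in CXB11/HiAJ and 12.7 and 6.98 CPM in CXB12/HiAJ, and 1.68 to 3.77 CPM in CXB6/ByJ and CXB7/ByJ. Within CXB4/ByJ, CXB11/HiAJ, CXB12/HiAJ and CXB13/HiAJ the male was above the female.

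Of 23 complement genes 1 passed between the parents, a share near the 6.91% of all genes. It was C7, a component of the membrane attack complex, higher in BALB/cJ by 2.01 on the log2 scale (SE 0.40, edgeR adjusted p = 0.00787). It measured 16.9 CPM in the BALB/cJ male and 2.25 CPM in the female, so the parental libraries overlapped, and it did not pass without the male (adjusted p = 0.202).

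Olfr1034, an olfactory receptor gene, was listed at 0 in the BALB/cJ male and at 0.0155 CPM in the female, against 1.17, 1.13 and 1.15 CPM in C57BL/6J. Among the CXB strains only CXB6/ByJ (1.44, 0.999 and 1.17 CPM) and CXB7/ByJ (0.889 CPM) had more than 0.0488 CPM.

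Of the genes known to differ between sublines, Ide and Gabra2 did not pass between the parents, with log2 differences of -0.36 (adjusted p = 0.121) and -0.51 (adjusted p = 0.484).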
